A study of Mus musculus with 6 samples.

Results

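The arrays compared here were those of macrophages after 5 h in lipopolysaccharide (LPS) and those after 1 h, 4 arrays of the 6 in the study, paired within wild type and within the IκBβ knockout. All 7510 genes that passed the filter on low signals were examined, and a gene was said to have switched when the same direction and at least a 2-fold difference were found in both genotypes in addition to an adjusted p under 0.05. The cells were bone marrow-derived macrophages of C57BL/6J mice, grown from non-adherent marrow cells in medium conditioned by L929 cells, which supplies the growth factor CSF-1. Wild-type and knockout macrophages were each sampled without LPS and at 1 h and 5 h in 1 µg/ml LPS, and the total RNA of each culture was hybridised to a Mouse Genome 430A 2.0 array. The labels give no allele for the knockout. Each genotype and time was 1 array, so the adjusted p-values rest on the agreement of both genotypes and not on replicate cultures. The labels do not say whether the arrays of a genotype came from the same animal. Xist was bright in the knockout (4189 at 1 h and 2149 at 5 h) and dim in wild type (80.4 and 62.1), so sex and genotype cannot be told apart.

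LPS is sensed by TLR4 on macrophages and activates NF-kB, MAP kinases and IRF3. Primary response genes are transcribed directly from these signals, without new protein synthesis, and many of them encode cytokines, transcription factors and the signal's own inhibitors. Secondary response genes need proteins made in the primary wave, among them interferon β, which acts back on the cells through its receptor. IκBβ is an inhibitor of NF-kB that can also hold NF-kB on DNA.

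Nfkbib, which encodes IκBβ, read 3330 at 1 h and 5007 at 5 h in wild type and 136 and 56.1 in the knockout, so the genotype labels held at both times. The macrophage genes Csf1r (the CSF-1 receptor), Adgre1 (F4/80), Lyz2 (lysozyme) and Cd68 gave signals of 9675 to 17390 on the 1 h and 5 h arrays and none of these genes was called between the times. The deposited signals had a trimmed mean of about 500.2 on every array and reached 20645 to 25581. Array medians were 105.1 (wild type) and 98.7 (knockout) at 1 h and 70.7 and 65.2 at 5 h, and 23.1% to 28.3% of the probe sets on these 4 arrays lay under the floor of 18.2 to which low signals were raised. The number of arrays limits the precision, and in RNA from a whole culture, fewer cells of a type and less RNA per cell cannot be told apart.

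Between 1 h and 5 h the signals of most genes changed, and most moved in the same direction in both genotypes. Of the 7510 genes, 1387 (18.5%) were called higher at 5 h and 3406 (45.4%) lower, which is 63.8% in all at an adjusted p under 0.05 (limma, Benjamini-Hochberg). In both genotypes 2118 genes were higher at 5 h than at 1 h and 4456 were lower. Across genes, the wild-type and the knockout change, which share no array, had a Pearson r of 0.91, and the SD of their difference was 0.55 on the log2 scale. The genes that switched numbered 617 upward (8.22%) and 1654 downward (22.0%). Of those that went up, 226 did so at least 4-fold and 86 at least 8-fold in both genotypes, and of those that went down, 471 and 123. At the edge of the 2-fold rule, which is 1 on the log2 scale, Ugcg (1.80 in wild type and 1.0003 in the knockout) and Lipa (−1.0002 and −1.17) were just inside, and Cd2ap (1.38 and 0.9995) and Maf1 (−0.9999 and −1.07) just outside.

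**Figure D1:**
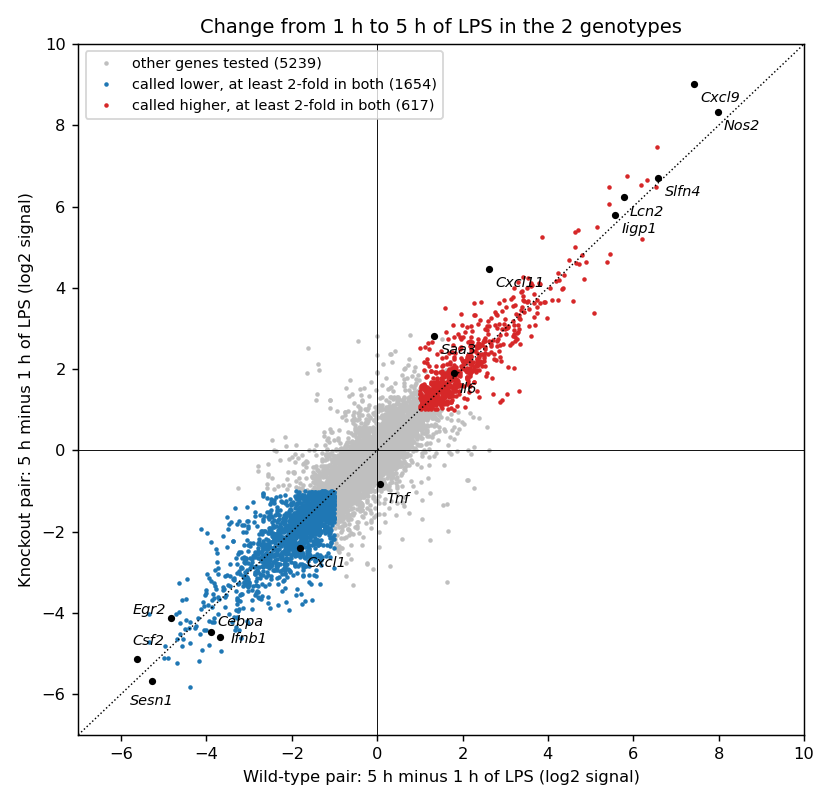
Each point is a gene, with its change from 1 h to 5 h of LPS (log2 signal) on the wild-type arrays on the x axis and on the knockout arrays on the y axis; the dotted line marks equal change. The 617 genes in red and the 1654 in blue passed the test and moved at least 2-fold in both genotypes, and most points follow the line, with Cxcl11 and Saa3 above it.

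At the median, the genes that switched upward had not moved after 1 h of LPS. Their median signal was 365 without LPS, 403 at 1 h and 1706 at 5 h in wild type, and 369, 409 and 1892 in the knockout. The median change was 0.00 from 0 h to 1 h, 1.97 from 0 h to 5 h and 1.87 from 1 h to 5 h on the log2 scale, 3 comparisons that share arrays. The genes that switched downward had median signals of 487, 435 and 120 in wild type and 505, 430 and 106 in the knockout. For these the median change was −0.25 from 0 h to 1 h, near the −0.18 of all genes, and −1.81 from 1 h to 5 h. The median signal of this set was thus highest in resting cells. Array medians also fell from 0 h to 1 h, from 113.4 to 105.1 in wild type and from 117.0 to 98.7 in the knockout. Of the genes with several probe sets, 13 of the 260 that switched upward and 21 of the 622 that switched downward had a probe set that moved the other way.

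How many genes count as higher or lower depends on how the arrays are put on a common scale. On the deposited scale 28.9% of the calls were higher and the median gene changed by −0.38. After quantile normalization 42.0% were higher with a median of −0.11, and after centring each array on its median 60.3% were higher with a median of 0.21. The 18 hybridisation controls on the arrays, which are added in fixed amounts, differed by a mean of 0.27 in wild type and 0.10 in the knockout between 1 h and 5 h on the deposited scale. The switch to higher signals was found under all 3 scalings for 592 of the 617 genes and the switch to lower signals for 853 of the 1654. Median centring moved every gene of a pair upward by the same amount, so it could not take the 2-fold rise from a gene. Values below are on the deposited scale, and small changes should be read against these shifts.

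**Figure D2:**
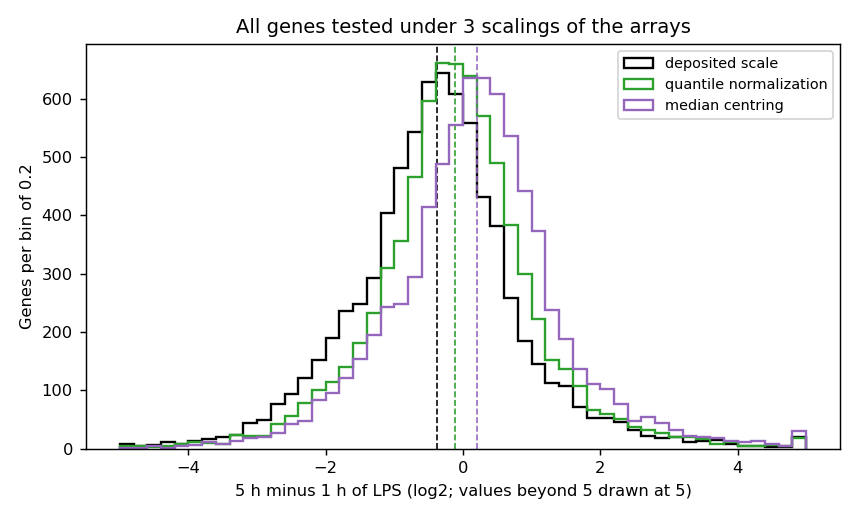
Histogram of the change from 1 h to 5 h of LPS (x axis, log2 signal; y axis, genes per bin) for the 7510 genes on the deposited scale, after quantile normalization and after median centring of each array. The dashed lines mark the medians at −0.38, −0.11 and 0.21, and the share of genes above 0 differs between the scalings.

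Letters known from LPS-response promoters were looked for in the 250 bases before the starts of these genes, taken from RefSeq (GRCm38.p6) on both strands. The interferon-stimulated response element core (GAAA, any NN, then GAAA) stood before 47 of the 502 genes switched upward that had a promoter in the table (9.36%), 39 of 1384 switched downward (2.82%) and 220 of all 6194 (3.55%). It stood before 6 of 7 interferon-inducible GTPase genes and 7 of 26 antiviral genes (26.9%). The kB letters (GGGA, any NNNN, then CC) were near the background of 26.1% both in genes switched upward (26.9%) and downward (28.3%), with 11 of 23 cytokine and chemokine genes (47.8%). The cyclic AMP response element TGACGTCA stood before 3.05% of all genes and 4 of 30 immediate early genes (13.3%). Over all 32851 windows of that length in the table the shares were 2.98%, 17.6% and 1.55%. A gene with several starts counted once, and a match describes letters and not a bound site.

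The promoters shown are those of the brightest called gene with a match in each of 6 sets (genes switched upward, genes switched downward, interferon-inducible GTPases, antiviral genes, cytokines and immediate early genes), with the match in capitals, 5′ to 3′ on the gene's strand. AW112010 (chr19:11050567-11050816, minus strand), a short interferon-responsive transcript, carries the kB letters on the opposite strand 70 to 61 bases before its start. Errfi1 (chr4:150854820-150855069, plus strand), an inhibitor of EGF receptor kinases, carries the cyclic AMP element 51 to 44 bases before its start. Gbp2 (chr3:142620413-142620662, plus strand), a guanylate-binding protein, carries the letters of the interferon element core on the opposite strand at 59 to 50 bases. Ifitm3 (chr7:141010745-141010994, minus strand), an antiviral membrane protein, carries the kB letters on the opposite strand at 116 to 107 bases. Il6 (chr5:30012864-30013113, plus strand) carries overlapping kB matches at 44 to 35 and 43 to 34 bases. Sgk1 (chr10:21881934-21882183, plus strand), a serum-induced kinase, carries the letters of the interferon element core on the opposite strand at 111 to 102 bases.
AW112010: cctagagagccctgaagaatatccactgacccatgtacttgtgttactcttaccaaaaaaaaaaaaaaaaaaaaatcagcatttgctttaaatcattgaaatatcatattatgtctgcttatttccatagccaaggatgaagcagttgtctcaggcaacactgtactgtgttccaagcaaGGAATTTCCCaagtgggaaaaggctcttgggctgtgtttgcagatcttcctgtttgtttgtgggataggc
Errfi1: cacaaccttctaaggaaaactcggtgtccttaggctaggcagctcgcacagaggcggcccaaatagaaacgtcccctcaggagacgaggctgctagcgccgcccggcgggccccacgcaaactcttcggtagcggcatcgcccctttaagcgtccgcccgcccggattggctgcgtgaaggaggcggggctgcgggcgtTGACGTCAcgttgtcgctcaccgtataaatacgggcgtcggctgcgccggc
Gbp2: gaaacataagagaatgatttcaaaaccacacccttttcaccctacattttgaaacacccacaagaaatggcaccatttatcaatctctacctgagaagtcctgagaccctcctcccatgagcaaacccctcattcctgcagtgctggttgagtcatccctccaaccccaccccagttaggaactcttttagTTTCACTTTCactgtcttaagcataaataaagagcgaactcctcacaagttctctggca
Ifitm3: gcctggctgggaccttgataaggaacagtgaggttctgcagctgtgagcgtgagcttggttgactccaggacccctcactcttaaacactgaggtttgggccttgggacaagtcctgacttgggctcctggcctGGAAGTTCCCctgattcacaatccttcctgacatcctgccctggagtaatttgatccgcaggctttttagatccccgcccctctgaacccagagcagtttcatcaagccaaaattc
Il6: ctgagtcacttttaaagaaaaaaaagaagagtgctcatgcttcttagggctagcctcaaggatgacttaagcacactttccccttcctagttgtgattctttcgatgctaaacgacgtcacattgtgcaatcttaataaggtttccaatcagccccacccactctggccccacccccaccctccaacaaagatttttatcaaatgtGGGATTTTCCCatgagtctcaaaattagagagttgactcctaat
Sgk1: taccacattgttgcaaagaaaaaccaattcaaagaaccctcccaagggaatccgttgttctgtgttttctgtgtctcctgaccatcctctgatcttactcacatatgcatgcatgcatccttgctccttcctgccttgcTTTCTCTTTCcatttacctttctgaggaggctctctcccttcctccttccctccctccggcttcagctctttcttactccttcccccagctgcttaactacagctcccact

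These 6 genes moved in both directions. AW112010 read 1962 in wild type and 1455 in the knockout at 1 h and 22761 and 18492 at 5 h, an increase of 3.60 (SE 0.12). Errfi1 read 12726 and 15215 at 1 h, from 248 and 252 without LPS. It was down to 967 and 939 by 5 h, a fall of 3.87 (SE 0.13), but still above those resting signals. Gbp2 went from 2022 and 2025 to 19870 and 17209, or 9.14-fold. Sgk1, whose match to the interferon letters had a different base at NN from that of Gbp2, went the other way. It went from 3952 and 2710 to 482 and 718, a fall of 2.48 (SE 0.30). Ifitm3 was bright throughout, at 16679 and 16598 and then 21653 and 20539, and rose by only 0.34 (SE 0.10).

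Among immediate early genes, the transcription factors and MAP kinase feedback inhibitors that answer a stimulus first, 23 of the 38 tested (60.5%, against 45.4% of all genes) were lower at 5 h than at 1 h, 1 was higher and 14 did not pass the test. Their median was −0.80 against −0.38 for all genes; it had been 2.20 from 0 h to 1 h. After median centring the list's median was −0.21, with 11 genes higher and 14 lower. Egr2, a zinc-finger factor, read 3047 and 1437 (wild type first, here and below) at 1 h and 107 and 82.4 at 5 h, and fell by 4.48 (SE 0.28, adjusted p 0.000882). Fosb, an AP-1 subunit, went from 263 and 243 to 15 and 20.9, with the wild-type signal at 5 h under the floor, and Maff, a small Maf factor, from 1680 and 1585 to 189 and 108. In each of these 3 genes both 5 h arrays lay below both 1 h arrays. Egr2 and Fosb ended below their resting signals, which were 308 and 297 for Egr2, while Maff stayed above its 23.7 and 52.6.

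Not all early factors ended. Egr1 fell by 1.70 (SE 0.14), but its 1015 and 867 at 5 h remained above the 443 and 394 of resting cells. Fos read 2024 and 2665 at 1 h and 1822 and 2761 at 5 h, close to its resting 1904 and 2162, a difference of −0.05 (SE 0.14) that did not pass the test. Dusp1, the phosphatase that turns off p38 and JNK, read 15581 and 16187 and then 15438 and 14469, a difference of −0.09 (SE 0.12); after median centring Dusp1 and Fos were called higher, by 0.50 and 0.53. Atf3, a stress-induced factor, differed by 0.11 (SE 0.15) and was not called. Mafk was the member called higher, from 300 and 387 at 1 h to 1014 and 1029 at 5 h (1.59, SE 0.14), and had not moved from its resting 305 and 392 at 1 h.

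The 35 cytokine and chemokine genes tested split into 3 courses, with 15 higher at 5 h than at 1 h (42.9%, against 18.5% of all genes), 7 lower (20.0%, against 45.4%) and 13 that did not pass the test; 9 switched upward and 5 downward. Their median was 0.26. The first course was a pulse. Csf2, which encodes the growth factor GM-CSF, read 905 and 639 at 1 h and 11.9 and 11.3 at 5 h, under the floor, so that it was at least 41.7-fold lower. Ifnb1, interferon β, read 1629 and 1955 at 1 h and 127 and 81.4 at 5 h, near the 88.2 and 50.3 of resting cells, and fell by 4.13 (SE 0.30, adjusted p 0.00111). Lif, an IL-6-family cytokine, went from 237 and 345 to 29.0 and 12, the latter under the floor. Cxcl1, a neutrophil attractant, fell by 2.12 (SE 0.18) from 14221 and 12964 but at 4029 and 2434 was still far above its resting 142 and 120.

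In the second course the signal was high by 1 h and the later difference did not pass the test. Tnf read 14967 and 13411 at 1 h and 15715 and 7507 at 5 h, so the wild-type pair differed by 0.07 and the knockout pair by −0.84, and the mean of −0.38 (SE 0.24) did not pass the test; without the wild-type 5 h array it was −0.75, with an adjusted p of 0.0455. Il1b read 17642 and 17480 and then 18657 and 14788 (−0.08, SE 0.29), and Il1a 8620 and 5067 and then 8452 and 4043 (−0.18, SE 0.29). Ccl2, the monocyte attractant, differed by −0.06 (SE 0.12), Cxcl2 by −0.16 (SE 0.15) and Ccl3 by 0.30 (SE 0.13), at signals of 11284 to 23033. Il12b, the p40 subunit of IL-12, differed by −0.13 (SE 0.45) while its level was higher in wild type (3067 and 2771) than in the knockout (899 and 828) at both times. The signals of Tnf, Il1b, Ccl2, Cxcl2 and Ccl3 lay in the upper part of a scale that ended at 20645 to 25581, and the part of this in the result was not tested. After median centring Ccl2 was called higher, by 0.53. Of the 35 genes of the list, 21 were then called higher and 5 lower, so which genes belong to this course depends on the scaling.

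The third course was a continued or delayed rise. Il6 was under the floor without LPS, read 5864 and 4821 at 1 h and 20267 and 18040 at 5 h, and rose by 1.85 (SE 0.12, adjusted p 0.000951). Il10, the anti-inflammatory cytokine, went from 3126 and 2534 to 6215 and 7286 (1.26, SE 0.20) and stayed just under 2-fold in wild type, at 0.99; without the knockout 1 h array its adjusted p was 0.0566. Cxcl9, a T-cell attractant known as an interferon target, was at 50.2 and 5.53 at 1 h and at 8541 and 9498 at 5 h; at 1 h the knockout array was under the floor, so its change of 9.02 is a bound beside the 7.41 of wild type. Ccl8 rose by 3.60 (SE 0.24), from 266 and 213 to 2443 and 3433. Cxcl10 and Ccl5, already at 8041 to 10330 at 1 h, rose by 0.83 and 0.86, and both calls were lost when an array was left out, with adjusted p of 0.0999 to 0.154 for Cxcl10 and 0.0612 to 0.133 for Ccl5.

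**Figure D3:**
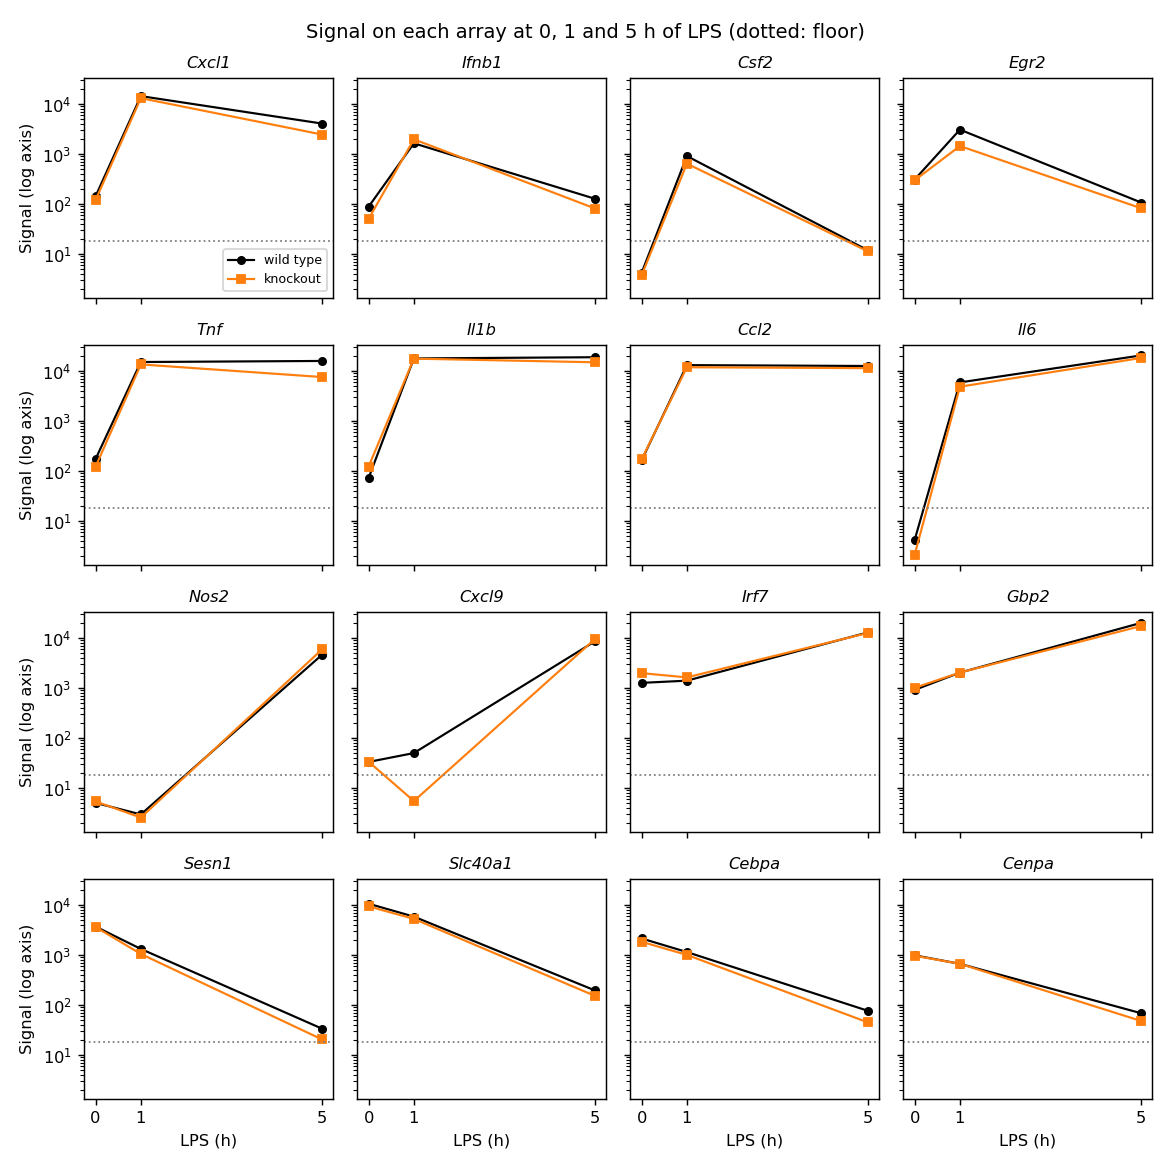
Signal on each array (y axis, log scale) against hours of LPS (x axis) for 16 genes, wild type in black and knockout in orange, with the floor of 18.2 dotted. The top row holds genes that peaked at 1 h, the second row Tnf, Il1b and Ccl2, which were high at both LPS times, and Il6, the third genes that rose between 1 h and 5 h, and the bottom row genes of resting cells that fell.

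Interferon-stimulated genes rose with few exceptions. Of 38 antiviral genes tested, 37 were called higher at 5 h than at 1 h and 0 lower, and 34 switched upward, against 8.22% of all genes. Their median was 2.55, after 0.02 from 0 h to 1 h. The direction was the same under quantile normalization (2.56) and median centring (3.13). Slfn4, a schlafen protein, went from 52.3 and 64.8 to 5013 and 6746, or 99.9-fold, the largest rise with all signals above the floor when genes are ranked by the smaller of both genotypes' changes. Isg20, an RNA exonuclease, went from 226 and 273 to 5691 and 6657 (4.63, SE 0.11), and Mx1, a dynamin-like antiviral GTPase, from 706 and 983 to 14189 and 15391 (4.15, SE 0.14). Ifit1, which binds foreign RNA, had already risen by 1 h, from 698 and 964 to 2816 and 3397, and reached 18718 and 16228. The member that did not pass was Slfn2, at 13720 and 14042 at 1 h and 15466 and 13050 at 5 h (0.03, SE 0.14).

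All 10 interferon-inducible GTPase genes tested, which encode proteins that attack the vacuoles of intracellular pathogens, switched upward, with a median of 3.33. Iigp1 went from 253 and 240 at 1 h to 11968 and 13252 at 5 h, or 51.2-fold. Gbp6 went from 168 and 220 to 5026 and 5423, and Igtp from 803 and 880 to 13675 and 11454 (3.90, SE 0.14). Without LPS Iigp1 had read 188 and 292, so the rise of this gene came after the first hour.

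Of 21 interferon regulatory factors, STATs and interferon receptors, 14 were higher (66.7%, against 18.5% of all genes), 4 lower and 3 did not pass the test, with a median of 0.74. Stat2, a subunit of the complex that carries the type I interferon signal, rose by 3.64 (SE 0.11), from 232 and 282 to 3122 and 3239. Irf7, the factor that amplifies interferon production, rose by 3.08 (SE 0.19), from 1396 and 1623 to 12841 and 12536, and Irf8 by 2.20 (SE 0.12). Irf1 went from 5219 and 2529 to 6882 and 5325, a difference of 0.74 (SE 0.32) that did not pass; it was 1.22 with an adjusted p of 0.0425 without the wild-type 1 h array, and called at 1.32 after median centring. Ifngr1, a chain of the interferon γ receptor, fell by 2.23 (SE 0.11), from 2060 and 2278 to 464 and 462. Irf4 read 406 and 329 at 1 h and was under the floor at 5 h, at least 20.0-fold lower. Irf3 fell by 1.12 on its brightest probe set, but another of its 3 probe sets rose by 1.42, and the call was lost when its probe sets were averaged.

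MHC class I presentation and immunoproteasome genes were higher for 10 of 15 (66.7%, against 18.5% of all genes) and lower for 0 (against 45.4%). Their median was 0.77. After quantile normalization H2-K1 and Pdia3 were called lower. Among genes of the class I molecules, H2-M3 rose by 0.63, while B2m (0.29), H2-D1 (0.10) and H2-K1 (−0.31) did not pass the test. Tap1, which pumps peptides into the endoplasmic reticulum, rose by 3.28 (SE 0.11), from 660 and 715 to 6663 and 6709. Tap2, its partner, rose by 2.27 (SE 0.12), and Psmb8, a catalytic immunoproteasome subunit, by 1.71 (SE 0.13). Tap1 had read 802 and 942 without LPS, above its level at 1 h.

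Genes of the macrophage's late effector programme rose too. Of 39 tested, 29 were called higher (74.4%, against 18.5% of all genes), 2 lower and 8 did not pass. Of these 39, 26 switched upward and 0 downward, with a median of 2.07. From 0 h to 1 h the list's median was 2.04, against −0.18 for all genes, so the median gene had risen by 1 h. Lcn2, which captures bacterial siderophores, went from 233 and 171 at 1 h to 12738 and 12851 at 5 h, or 64.0-fold. Cfb, complement factor B, went from 57.7 and 22.8 to 3355 and 2474 (6.31, SE 0.29), and Upp1, a uridine phosphorylase, from 49.5 and 79.4 to 4594 and 7095 (6.51, SE 0.21). The prostaglandin genes were staggered. Ptgs2 (COX-2) was already at 5367 and 6629 at 1 h and rose 2.67-fold to 16749 and 15178, while Ptges, which acts after it, was at 196 and 140 and rose 28.3-fold to 4894 and 4490. Edn1, the vasoconstrictor endothelin, rose by 5.06 (SE 0.25), from 211 and 116 to 5469 and 4968.

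Other late genes rose less evenly or not at all. Marco, a scavenger receptor for bacteria, went from 724 and 300 to 3027 and 2276 (2.49, SE 0.27). Saa3, an acute-phase protein, went from 6933 and 2237 to 17481 and 15703, a rise of 1.33 in wild type and 2.81 in the knockout, and its adjusted p of 0.0434 became 0.118 to 0.176 without either 1 h array or the knockout 5 h array. Acod1, which makes the metabolite itaconate, read 14070 and 13722 at 1 h and 15679 and 12390 at 5 h and was not called. Thbs1 (thrombospondin) was called lower by 0.81 (adjusted p 0.0505 without the knockout 1 h array) and F3 (tissue factor) by 0.79 (0.156 to 0.165 without a 1 h array or the knockout 5 h array).

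Some genes could not be seen at 1 h. Both 1 h signals of 23 genes that switched upward were under the floor of 18.2, so that their rises are lower bounds. The brightest at 5 h was Nos2, inducible nitric oxide synthase, at 2.99 and 2.60 at 1 h and 4596 and 5881 at 5 h, at least 285-fold. Slamf1, a receptor that binds bacteria, reached 1468 and 1820 (at least 89.6-fold) and the transcript U90926 1313 and 1675 (at least 81.3-fold). Hdc, which makes histamine, reached 648 and 827, and Pou3f1, a POU-domain factor, 512 and 510. Klrk1 (the receptor NKG2D), Plpp1 (a lipid phosphatase) and Ccnj (cyclin J) reached 211 to 344. Without LPS, Slamf1 (41.7 and 53.4) and Ccnj (51.5 and 85.8) had been above the floor on both arrays. Plpp1 had been above it in the knockout (40.6) and U90926 in wild type (20.5). The largest rises beyond those of the lists, with all signals above the floor, were those of Cnn3 (5.96), Tnfsf10 (5.14) and Slco3a1 (5.01). They encode calponin 3, the death ligand TRAIL and an organic anion transporter. Another of the 6 probe sets of Cnn3 rose by only 2.26.

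**Figure D4:**
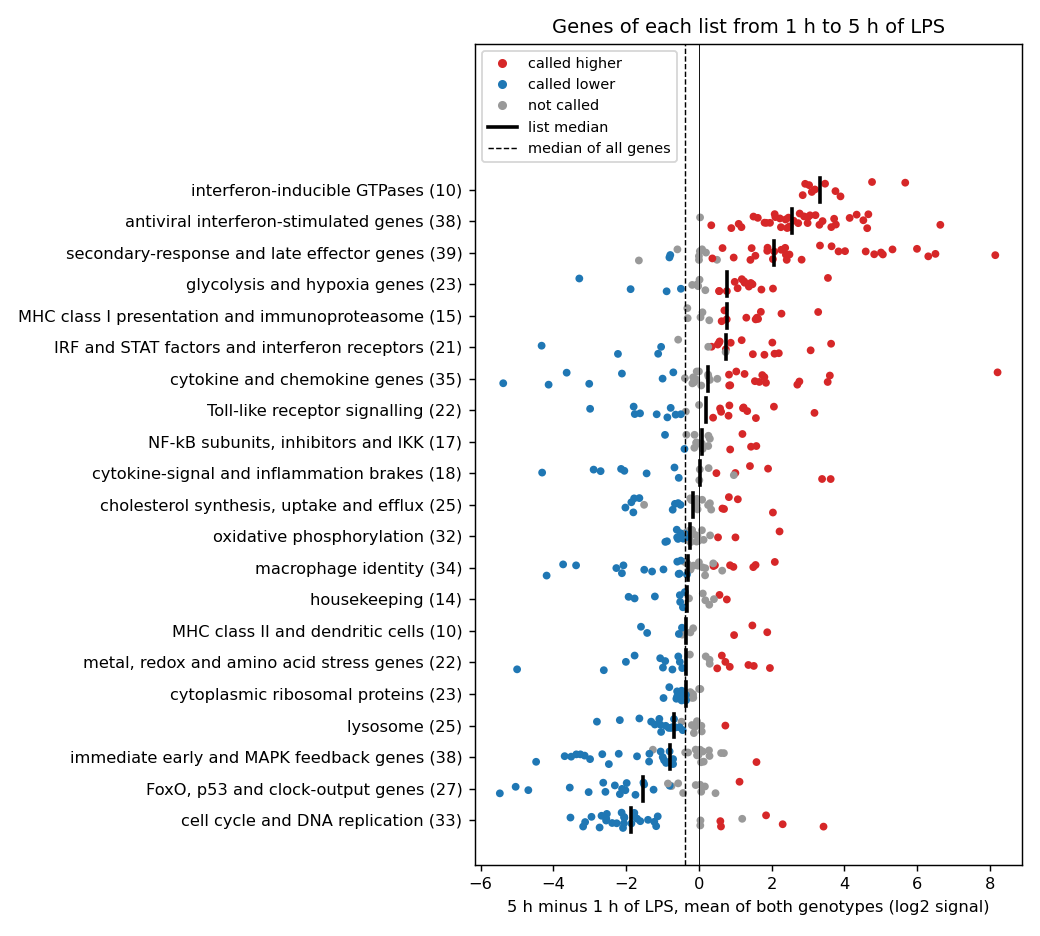
Each point is a gene of a list, placed by its mean change from 1 h to 5 h of LPS over both genotypes (x axis, log2 signal), with lists as rows, the number of genes tested in parentheses and the list's median as a bar. Interferon-inducible GTPases (median 3.33), antiviral genes (2.55) and late effectors (2.07) lie to the right of the dashed median of all genes (−0.38), and cell cycle genes (−1.86) and FoxO, p53 and clock-output genes (−1.52) to its left.

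Most NF-kB genes did not pass the test between the times. Of 17 subunits, inhibitors and kinases tested, 4 were higher (23.5%, against 18.5% of all genes), 2 lower (11.8%, against 45.4%) and 11 did not pass the test, and the median of 0.08 became −0.02 after quantile normalization and 0.66 after median centring. Nfkbia, the inhibitor IκBα, read 15503 and 16622 at 1 h and 19263 and 14951 at 5 h (0.08, SE 0.15), and among the alternatives was called only after median centring, at 0.66. Rel, which encodes the subunit c-Rel, fell by 0.93 (SE 0.17), from 1972 and 2027 to 961 and 1145, and its adjusted p without a 1 h array was 0.0646 or 0.0760. Nfkb2, which encodes p100, rose by 1.44 on its brightest probe set and fell by 0.64 on another. Tnip2, an A20-binding inhibitor, rose by 1.58 (SE 0.31), with adjusted p of 0.0831 and 0.0860 without the wild-type 1 h or the knockout 5 h array.

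Of 18 brakes on cytokine signals tested, 6 were higher and 8 lower (33.3% and 44.4%, against 18.5% and 45.4% of all genes, so the share lower was near the background), with a median of 0.02 (−0.08 after quantile normalization). Socs1, which blocks the kinases of interferon receptors, rose by 3.63 (SE 0.24), from 109 and 244 to 1724 and 2345, and Cd274 (PD-L1) by 3.39 (SE 0.18), from 795 and 1329 to 10369 and 11196. Il1rn, the IL-1 receptor antagonist, rose by 1.90 (SE 0.24). Socs3, the brake on IL-6 signals, read 12191 and 12897 at 1 h and 13205 and 12116 at 5 h (0.01, SE 0.56), and Tnfaip3 (A20) differed by 0.05 (SE 0.20); neither passed the test. Zfp36l1 and Zfp36l2, which destabilise mRNAs, fell by 4.31 (SE 0.20) and 2.89 (SE 0.13). Zfp36l1 went from 7444 and 7834, above its resting 3039 and 3682, to 296 and 500, far below it. Trib1 fell by 2.70 (SE 0.10).

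Of 22 genes of Toll-like receptor signalling, 11 were higher and 9 lower, with a median of 0.20. The share lower, 40.9%, was near the 45.4% of all genes, and the share higher was 50% against 18.5%. Tlr3, the receptor for double-stranded RNA, rose by 3.18 in wild type and 3.18 in the knockout, from 158 and 254 to 1433 and 2295. Map3k8, the kinase that feeds ERK, rose by 2.07 (SE 0.12). Tlr2, the receptor for bacterial lipoproteins, was high at 1 h (10115 and 10490) and fell by 1.76 (SE 0.21) towards its resting 2557 and 2836, at 3657 and 2520. Mapk14 (p38α) fell by 2.99 (SE 0.21), from 3149 and 3330 to 507 and 327, and its activator Map2k3 by 1.79 (SE 0.16).

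Of 23 glycolysis and hypoxia genes, 14 were higher (60.9%, against 18.5% of all genes) and 4 lower, with a median of 0.77. Pfkfb3, which makes the activator of phosphofructokinase, rose 11.7-fold from 470 and 868 to 6256 and 8972, and Pfkp, a phosphofructokinase, 4.11-fold. Vegfa, the vascular growth factor and a hypoxia target, went the other way, from 1352 and 2127 to 118 and 255, and fell by 3.29 (SE 0.34). Of 22 metal, redox and amino acid stress genes, 7 were higher and 11 lower (31.8% and 50%, the latter near the 45.4% of all genes); the median of −0.35 was 0.06 after quantile normalization and 0.23 after centring. Iron transport genes moved in both directions. Slc40a1 (ferroportin), the exporter of iron, fell 32.0-fold from 5812 and 5240 to 196 and 152. Of genes for iron uptake, Slc11a2 rose 3.88-fold from 590 and 825 to 2580 and 2835. Tfrc (the transferrin receptor), counted in other lists, fell by 1.77 (SE 0.18), from 2914 and 3243 to 1054 and 773. Srxn1 and Gclc, targets of the oxidative stress factor NRF2, fell by 2.61 (SE 0.26) and 2.01 (SE 0.14). Gsr (glutathione reductase), a redox gene of the same list, rose by 1.36 (SE 0.17), from 1165 and 1113 to 2621 and 3275.

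Among genes with all signals above the floor, Sesn1, a stress-induced inhibitor of mTORC1, fell most by the rule used, from 1317 and 1046 at 1 h to 33.8 and 20.6 at 5 h (−5.47, SE 0.19), after 3681 and 3605 without LPS. Cerk (ceramide kinase) went from 1920 and 2193 to 60.6 and 63.0, and Pdxk (pyridoxal kinase) from 3266 and 3177 to 127 and 83.9. Pdcd4, an inhibitor of translation, fell 25.4-fold from 708 and 738, and Inpp5d, the phosphatase SHIP1, 21.9-fold from 1570 and 1703. Arrb1 (β-arrestin 1), Mtss1 (an actin-binding protein), Mef2d (a MADS-box factor), Tpcn1 (an endolysosomal channel) and Mknk2 (a kinase of eIF4E) fell by 4.31 to 4.56. For Pdxk, Inpp5d, Mtss1, Mef2d and Tpcn1 another probe set fell less, by 1.57 to 2.69.

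Signals of 80 genes that switched downward were under the floor on both 5 h arrays, so that their falls are bounds. After Csf2, the brightest at 1 h were the clock-output factor Dbp (744 and 484, at least 32.9-fold lower), Lpin1 (573 and 517), Mxd4 (426 and 452), Nfic (449 and 415), Irf4, Apbb3 (346 and 365) and Cnnm2 (280 and 336). Another probe set changed less for Mxd4 (−1.09), Nfic (−2.41), Irf4 (−2.28) and Cnnm2 (−2.85). Unlike Csf2, Dbp and Lpin1 were brighter without LPS than at 1 h, at 1082 and 876 for Dbp. Dbp, Sesn1 and Trp53inp1, a p53 target that fell by 4.69 (SE 0.12), belong to the list of FoxO, p53 and clock-output genes, of which 17 of 27 were lower (63.0%, against 45.4% of all genes) and 1 higher, with a median of −1.52 (−1.12 and −0.94 under the other scalings). The member called higher was Txnip, an inhibitor of thioredoxin, which had dropped from 5570 and 6224 to 622 and 654 in the first hour and stood at 1045 and 1839 at 5 h; without the knockout 1 h array its adjusted p was 0.0865.

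Cell cycle and DNA replication genes were lower for 25 of 33 (75.8%, against 45.4% of all genes) and higher for 5, with 24 switched downward against 22.0% of all genes, and a median of −1.86 (−1.47 and −1.27 under the other scalings). Cenpa, the histone of centromeres, fell 11.6-fold from 665 and 666 to 68.8 and 48.2, and Gmnn (geminin, an inhibitor of replication licensing) 8.74-fold from 303 and 332. Mki67, the proliferation marker, read 200 and 166 without LPS, 1442 and 647 at 1 h and 166 and 68.3 at 5 h, and fell by 3.18 (SE 0.29). Against the list's direction, Ccnd2 (cyclin D2) rose 10.8-fold from 904 and 552 to 7919 and 7313, and Tpx2, a spindle factor, 4.95-fold. Ccne1 (cyclin E1), under the floor at 1 h on both arrays, was called higher at 95.5 and 45.2. It had read 83.7 and 56.2 without LPS, so its 5 h signals were near those of resting cells.

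Genes of macrophage identity were lower for 14 of 34 (41.2%) and higher for 7 (20.6%), shares near the 45.4% and 18.5% of all genes. Their median of −0.29 was −0.27 after quantile normalization and 0.29 after median centring. Their summed signal was 180235 and 176322 at 1 h and 194682 and 184753 at 5 h. The falls included regulators and chemokine receptors. Cebpa, the C/EBP factor of myeloid cells, fell 18.2-fold from 1142 and 1002 to 76.7 and 44.9, while Cebpd rose 2.95-fold from 1960 and 2137 to 5821 and 6261. Cxcr4 and Ccr2, chemokine receptors that hold cells in the marrow and draw monocytes from the blood, fell 13.3-fold and 10.4-fold. Fcgr1, the high-affinity IgG receptor, rose 4.26-fold and Msr1, a scavenger receptor, 2.82-fold.

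Ribosomal protein, oxidative phosphorylation and housekeeping genes had medians near the −0.38 of all genes on the deposited scale. After quantile normalization their medians were further below 0 than the −0.11 of all genes. After median centring they lay above 0, beside 0.21 for all genes. Ribosomal protein genes were lower for 13 of 23 (56.5%, against 45.4% of all genes) and higher for 0, with a median of −0.36. After quantile normalization 16 were lower, against 2558 of all 7510 genes, with a median of −0.48. After median centring 4 were higher and 0 lower with a median of 0.23. Oxidative phosphorylation genes (12 of 32 lower, 3 higher) had medians of −0.26, −0.31 and 0.33 under the 3 scalings, and housekeeping genes (7 of 14 lower, 2 higher) −0.33, −0.41 and 0.26. Cycs, which encodes cytochrome c, rose 4.66-fold against its list, and Polr2a, the large subunit of RNA polymerase II, fell 3.82-fold. Lysosome genes were lower for 16 of 25 (64.0%, against 45.4% of all genes), with a median of −0.68. The median was −0.83 after quantile normalization and −0.10 after centring, when 7 were called higher and 7 lower. Among them Tfeb, the regulator of lysosome genes, fell by 2.80 (SE 0.30). Genes of cholesterol synthesis, uptake and efflux were lower for 9 of 25 and higher for 5. These shares, 36.0% and 20.0%, stand beside 45.4% and 18.5% of all genes. The median of −0.15 was 0.18 and 0.43 under the other scalings. Ch25h, which makes the antiviral oxysterol 25-hydroxycholesterol, rose 4.11-fold, and Abca1, the exporter of cholesterol, fell 3.62-fold.

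Markers of other cells were read beside these changes, and their part in the results was not tested. Their counts stand against 18.5% of all genes called higher and 45.4% called lower. Of 11 B-cell markers on the array, 5 were tested and 4 called lower; Pax5, Vpreb1, Igll1 and Ebf1 were under the floor on all 4 arrays, and the summed signal fell from 5431 and 5849 at 1 h to 2402 and 2329 at 5 h. Blnk gave the largest part of this sum on all 4 arrays, at 2779 and 2944 and then 1846 and 1791. Ighm came next and dropped further, from 2308 and 2563 to 268 and 304. Ighm has 3 probe sets, and the smallest change among them was −0.79, against −3.09 for the one used. Of 14 neutrophil markers, 3 of the 5 tested were higher and 2 lower, with sums of 4376 and 4976 and then 5202 and 6490; Elane, Ltf, Cxcr2 and Chil3 were under the floor, and S100a8 rose by 2.95 (SE 0.39), from 104 and 91.6 to 499.97 and 1135. The sums of fibroblast markers were 15899 and 15514 and then 15141 and 14643, nearly all of it Vim (14972 and 14855, then 14205 and 13846), a filament gene that macrophages express too, with Col1a1, Lum and Twist1 under the floor and 1 of 5 called higher. MHC class II and dendritic cell markers (3 of 10 higher, 4 lower) had a median of −0.34, −0.38 after quantile normalization and 0.24 after centring. Their sums were 39618 and 42157 and then 28137 and 28535, after 30614 and 33248 without LPS. Cd83 gave 10205 and 10839 of the sums at 1 h and 3506 and 3471 at 5 h. T and NK cell markers summed to 308 and 318 and then 519 and 343 with 1 of 2 called higher, and mast cell markers to 332 and 227 and then 840 and 1043, with Hdc the 1 of 2 called higher. Erythroid and platelet markers (1 of 5 higher, 3 lower) summed to 14278 and 16240 and then 8930 and 10560. Most of these sums was Pf4 (10602 and 12031, then 7227 and 9051) and Tfrc (2914 and 3243, then 1054 and 773). The median was −0.48, −0.56 after quantile normalization and 0.10 after centring. None of the 4 sex-linked genes tested was called by limma.

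Where both genotypes moved the same way, the size of the change could still differ, which was not tested with 1 array for each. Among the genes that switched upward, the knockout rise was the larger for Cxcl11 (2.62 in wild type and 4.47 in the knockout), an interferon-induced chemokine, and Aqp9 (1.59 and 3.51), a glycerol channel, and the wild-type rise for Lad1 (3.33 and 1.46). Cxcl11 read 290 and 233 at 1 h and 1780 and 5167 at 5 h, so the genotypes were close at 1 h and parted at 5 h. Its other probe set rose less, by 1.27 as the mean of both genotypes, against 3.54 for the one used. Among those that switched downward, Ankrd44 fell further in the knockout, from 2479 and 2818 to 867 and 219, and Birc5 (survivin) in wild type, from 203 and 126 to 20.1 and 46.6. The calls for Aqp9, Lad1, Ankrd44 and Birc5 were lost when a 1 h array was left out, with adjusted p of 0.0885 for Aqp9, 0.0799 for Lad1, 0.0643 and 0.137 for Ankrd44 and 0.0592 and 0.121 for Birc5.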

How the data were processed

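The deposited values are signal intensities on a linear scale for 22690 probe sets, computed by the authors with MAS5, per the submitters' processing notes; the version and the scaling target were not given in the sources used here. Probe sets with 1 gene symbol (20393) were used, and those with several (691) and controls (64) were left out. Signals under 18.2, the 25th percentile, were raised to that floor and log2 was taken. Probe sets that never rose above the median of an array were dropped, and the brightest of each gene was used, which gave 7510 genes.

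The contrast of 5 h and 1 h was fitted with limma 3.58.1 in R 4.3.3 over all 6 arrays, with genotype and time as additive terms; genotype is the pairing. This left 2 residual degrees of freedom and a prior of 2.19. The 0 h arrays add to the estimate of the spread. SE is that of the fit, and p-values were adjusted by Benjamini-Hochberg over all genes.

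The genes named were the 12 largest rises and falls with all signals above the floor, ranked by the smaller change of the 2 genotypes; the 8 brightest genes under the floor at 1 h or at 5 h; a set of well-known LPS-response genes; the 3 most changed genes of each list in each direction and uncalled genes with large changes; and genes whose genotypes differed most. Genes shown with a promoter followed a rule of their own, and Xist and the macrophage markers were checks. Members and lists were chosen with earlier results of these data known. Alternatives covered the floor, a pseudocount of 16, the filter, scaling, probe sets, the fit and leaving out each array. Promoters came from a RefSeq table.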

Additional observations from a re-analysis of the deposited data

Results flagged for a closer look

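In 17 genes the genotypes moved in opposite directions by at least 2-fold each. The 4 largest with all signals above the floor stand out because the wild-type pair and the knockout pair went opposite ways, and the difference was not tested. Slc30a3, a zinc transporter, changed by 1.64 (log2) in wild type, from 34.9 at 1 h to 109 at 5 h, and by −3.24 in the knockout, from 222 to 23.4. Mfap2, a microfibril protein, changed by −1.42 in wild type, from 92.0 to 34.5, and by 1.39 in the knockout, from 46.9 to 123. Sh3tc1 changed by 1.23 in wild type, from 48.1 to 113, and by −2.20 in the knockout, from 133 to 28.8. Krtap19-1, a hair keratin-associated protein, changed by −1.10 in wild type, from 106 to 49.3, and by 1.24 in the knockout, from 23.8 to 56.3. All 4 genes had signals of 222 or less on every array of the comparison.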

How the results depend on the processing

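On the deposited scale 1387 genes were called higher, 3406 lower, 617 switched upward and 1654 downward. Median centring gave 2752, 1813, 1250 and 859, and quantile normalization 1097 switched downward. Centring moves all genes by the difference of the array medians, and quantile normalization moves dim and bright genes unequally. Leaving out each array gave 874 to 1234 genes called higher and 2227 to 3131 called lower, with fewer arrays in the fit: 911 higher without the 1 h array of wild type, and 874 higher and 2227 lower without that of the knockout. Switched counts could not be given without a 1 h or 5 h array, since a pair was then missing. Genotype pairs the arrays. No paired analysis by replicate number was possible because no group has a second array. Without the genotype term, 610 of the genes switched upward and 1653 of those switched downward were kept. Of the named genes that were called, 39 lost the call without at least 1 array, 32 with no filter on low signals, 15 with the floor at the 50th percentile, 16 after median centring and 10 after quantile normalization. After median centring H2-Eb1 turned to 0.034, Ikbkg to 0.19, Mmp9 to 0.17 and Pf4 to 0.10, and Ikbkg was 0.43 as the mean of its probe sets; the cause was not tested. Uncalled genes turned sign as follows. With median centring the values were 0.53 for Ccl2, 0.43 for Cxcl2, 0.50 for Dusp1, 0.53 for Fos, 0.45 for Il12b, 0.41 for Il1a, 0.50 for Il1b, 0.24 for Nfkbib and 0.20 for Tnf. With quantile normalization they were −0.10 for Acod1, −0.024 for Nfkbia, −0.097 for Socs3 and −0.12 for Tnfaip3. Il12b was 0.12 as the mean of its probe sets, and Nfkbib 0.013 with the floor at the 50th percentile. Leaving out each array in turn gave −0.28 to 0.29 for Acod1, −0.35 to 0.037 for Cxcl2, −0.20 to 0.020 for Dusp1, −0.21 to 0.10 for Fos, −0.53 to 0.26 for Il12b, −0.52 to 0.16 for Il1a, −0.43 to 0.27 for Il1b, −0.11 to 0.27 for Nfkbia, −1.44 to 0.75 for Nfkbib (called at −1.44, adjusted p 0.0307, without the wild-type 5 h array), −0.56 to 0.58 for Socs3 and −0.17 to 0.28 for Tnfaip3. The cause was not tested.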
